A study of Arabidopsis thaliana with 12 samples.

Results

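The 10 genes described here encode the core of gibberellin perception and 2 enzymes of gibberellin synthesis in Arabidopsis thaliana. They are 5 DELLA genes, RGA (AT2G01570), GAI (AT1G14920), RGL1 (AT1G66350), RGL2 (AT3G03450) and RGL3 (AT5G17490), 3 receptor genes, GID1A (AT3G05120), GID1B (AT3G63010) and GID1C (AT5G27320), the gibberellin 3-oxidase gene GA3OX1 (AT1G15550) and the gibberellin 20-oxidase gene GA20OX2 (AT5G51810). They were taken by their AGI codes, as 10 of the 24228 genes in the deposited tables. The rule uses no measured value, but the set was drawn up with earlier results of these data known. mRNA-seq libraries were made from rosette leaves of a plant in which PAD4 was knocked out (pad4) and of the wild type, accession Col-0, each after 2'cADPR or after water. There were 3 libraries in each of 4 groups, in the order pad4 after 2'cADPR, pad4 after water, wild type after 2'cADPR and wild type after water, and 12 in all. 2'cADPR is a cyclic ADP-ribose variant produced by the NAD-cleaving activity of TIR domains, and PAD4 is a lipase-like protein that works with EDS1 in the immune pathway downstream of TIR receptors. The comparison addresses how leaves respond to this molecule and whether the response depends on PAD4. The labels give neither the dose, the time after treatment nor the age of the plants, and they do not name the pad4 allele. They also do not say that replicate libraries came from separate plants, so each p-value measures the spread between these libraries, which may be technical.

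Gibberellins are growth hormones that promote stem and leaf growth, germination and flowering. DELLA proteins are nuclear growth repressors of the GRAS family. When active gibberellin binds a GID1 receptor, the receptor takes hold of the DELLA domain, and the F-box protein SLY1 then directs the DELLA protein to the proteasome. GA20OX and GA3OX enzymes carry out the last steps that make active gibberellin, while GA2OX enzymes inactivate it. Low gibberellin signalling is known to raise transcripts of GID1 and of some synthesis genes, a feedback that stabilises the pathway. DELLA proteins are known to shift the balance between growth and defence in leaves, and RGL3 has been tied to jasmonate signalling. All values below are transcript levels, and DELLA protein was not measured.

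The 5 DELLA genes are single-exon copies spread over 4 chromosomes, and the sequence that gives the family its name is shown because it is the stretch the receptors grip. RGA lies on chromosome 2 at 255247 to 257568, minus strand, GAI on chromosome 1 at 5148982 to 5151415, plus strand, and RGL1 on chromosome 1 at 24748105 to 24750186, plus strand. RGL2 lies on chromosome 3 at 819337 to 821652 and RGL3 on chromosome 5 at 5763989 to 5766246, both on the minus strand. Coordinates and sequences are from RefSeq's TAIR10.1 assembly, whose exon lengths were within 1 base of those implied by the deposited tables for 24224 of 24228 genes. The 81 coding bases below run 5′ to 3′ from the first codon of the DELLA motif in each gene, and capitals mark bases that differ from RGA.
RGA: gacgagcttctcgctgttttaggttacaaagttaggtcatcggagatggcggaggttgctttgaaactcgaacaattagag
GAI: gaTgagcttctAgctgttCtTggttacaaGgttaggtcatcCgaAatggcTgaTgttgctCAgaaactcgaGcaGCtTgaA
RGL1: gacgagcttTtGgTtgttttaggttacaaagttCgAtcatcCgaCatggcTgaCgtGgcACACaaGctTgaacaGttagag
RGL2: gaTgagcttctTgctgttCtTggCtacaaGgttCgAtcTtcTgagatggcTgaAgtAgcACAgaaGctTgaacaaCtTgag
RGL3: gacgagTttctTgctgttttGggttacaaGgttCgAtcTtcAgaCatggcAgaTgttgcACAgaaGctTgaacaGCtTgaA
Over these 27 codons GAI differed from RGA at 16 bases (80.2% identity), RGL1 at 17 (79.0%), and RGL2 and RGL3 at 20 each (75.3%). The longest identical run between the exons of RGA and GAI was 30 bases, and the longest between any other pair of DELLA genes was 26 bases, in RGL1 and RGL3. Among the receptor genes, which have 2 exons each, GID1A and GID1C shared a run of 35 bases. No annotated gene overlapped any of the 10.

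The 250 bases upstream of the annotated start were searched on both strands for 3 short motifs: the W-box, written here as TTGACC or TTGACT, which WRKY factors bind; the G-box CACGTG, which bHLH and bZIP factors bind; and TTTTGTC, the core bound by INDETERMINATE DOMAIN (IDD) factors, through which DELLA proteins reach many targets. Among 9 of the 10 genes, a W-box was present upstream of RGL2 and GID1B, and in 28.2% of the same-length regions of 24120 genes. The IDD core was present upstream of GAI, RGL3 and GA3OX1, against 13.2% of all regions, and the G-box upstream of none of the 9, against 6.81%. These matches describe letters in a window and not binding. The upstream sequences shown are of RGL2 and GID1B, 2 of the 3 genes that rose in wild type leaves after 2'cADPR, and of RGL3. The other gene that rose, GID1C, is not among the 9 searched, and RGL3 was the DELLA gene with the greatest fall. The sequences run 5′ to 3′ on the gene's strand, with W-box or IDD core letters, on either strand, in capitals. They are chr3:821653-821902 (RGL2, minus strand), chr3:23288993-23289242 (GID1B, plus strand) and chr5:5766247-5766496 (RGL3, minus).
RGL2: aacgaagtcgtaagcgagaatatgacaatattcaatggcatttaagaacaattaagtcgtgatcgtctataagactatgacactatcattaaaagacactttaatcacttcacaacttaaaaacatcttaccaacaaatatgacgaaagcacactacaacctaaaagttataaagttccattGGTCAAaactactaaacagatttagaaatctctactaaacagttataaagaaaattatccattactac
GID1B: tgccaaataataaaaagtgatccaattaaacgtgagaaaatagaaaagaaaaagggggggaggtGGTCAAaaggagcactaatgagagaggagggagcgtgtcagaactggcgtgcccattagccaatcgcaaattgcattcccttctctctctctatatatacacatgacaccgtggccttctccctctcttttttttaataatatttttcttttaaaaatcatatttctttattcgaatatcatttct
RGL3: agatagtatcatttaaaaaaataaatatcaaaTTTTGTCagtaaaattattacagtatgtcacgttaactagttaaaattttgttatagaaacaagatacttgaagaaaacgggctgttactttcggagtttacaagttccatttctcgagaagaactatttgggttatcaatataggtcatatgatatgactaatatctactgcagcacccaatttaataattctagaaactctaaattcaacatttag
The W-box match began 68 bases before the start of RGL2 and 186 before that of GID1B, and the IDD core 218 bases before that of RGL3.

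Library totals ran from 35816755 to 44436989 counted reads. PAD4 itself stood at 2.52 to 5.51 CPM (reads per 1000000 counted, scaled by TMM factors) in the 6 pad4 libraries and at 63.9 to 590 CPM in the 6 wild type libraries, a log2 difference of -5.60 (exact two-sided permutation test, p = 0.00216, the smallest that 924 splits allow). Markers of other organs were low: the summed level of 8 flower, seed, root and meristem genes, of which 5 were in the table, was 1.96 to 6.75 CPM, and OLEO1 and STM had at most 3 counts in every library. Genes were tested with edgeR's quasi-likelihood test in 1 fit of all 12 libraries, with Benjamini-Hochberg adjustment over the 19652 genes that passed the count filter, and called at an adjusted p under 0.05. Of the 10 genes, 9 were tested. GA20OX2 was left out by the filter, with 1, 4 and 1 reads in pad4 leaves after 2'cADPR, 1, 2 and 0 in pad4 leaves after water, 0 in each wild type library after 2'cADPR, and 4, 0 and 2 in wild type leaves after water. No fold is given for it, since every group was at or near the counting floor.

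In wild type leaves 2'cADPR lowered 4 of the 5 DELLA transcripts and raised RGL2, raised 2 of the 3 receptor transcripts, and lowered GA3OX1. GID1B was 7.09-fold higher after 2'cADPR than after water. RGL3 was 11-fold higher after water than after 2'cADPR, where it had only 5 to 15 reads per library. In pad4 leaves none of the 9 tested genes passed the threshold. In the wild type 3 of the 9 genes were called higher and 5 lower, against a background of 69.2% of all tested genes called in either direction (34.6% higher and 34.6% lower), so most tested genes were called in this comparison. The median log2 fold change of the 9 was -0.70, beside -0.01 over all tested genes. In pad4 the background was 0.00509%, 1 gene of 19652, FAMT (AT3G44860), named here after its value was seen (log2 fold change 1.05, adjusted p = 0.00289). DESeq2 called 29 genes there, none of them among the 10, and 992 genes (5.05%) had an unadjusted p under 0.05.

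**Figure D1:**
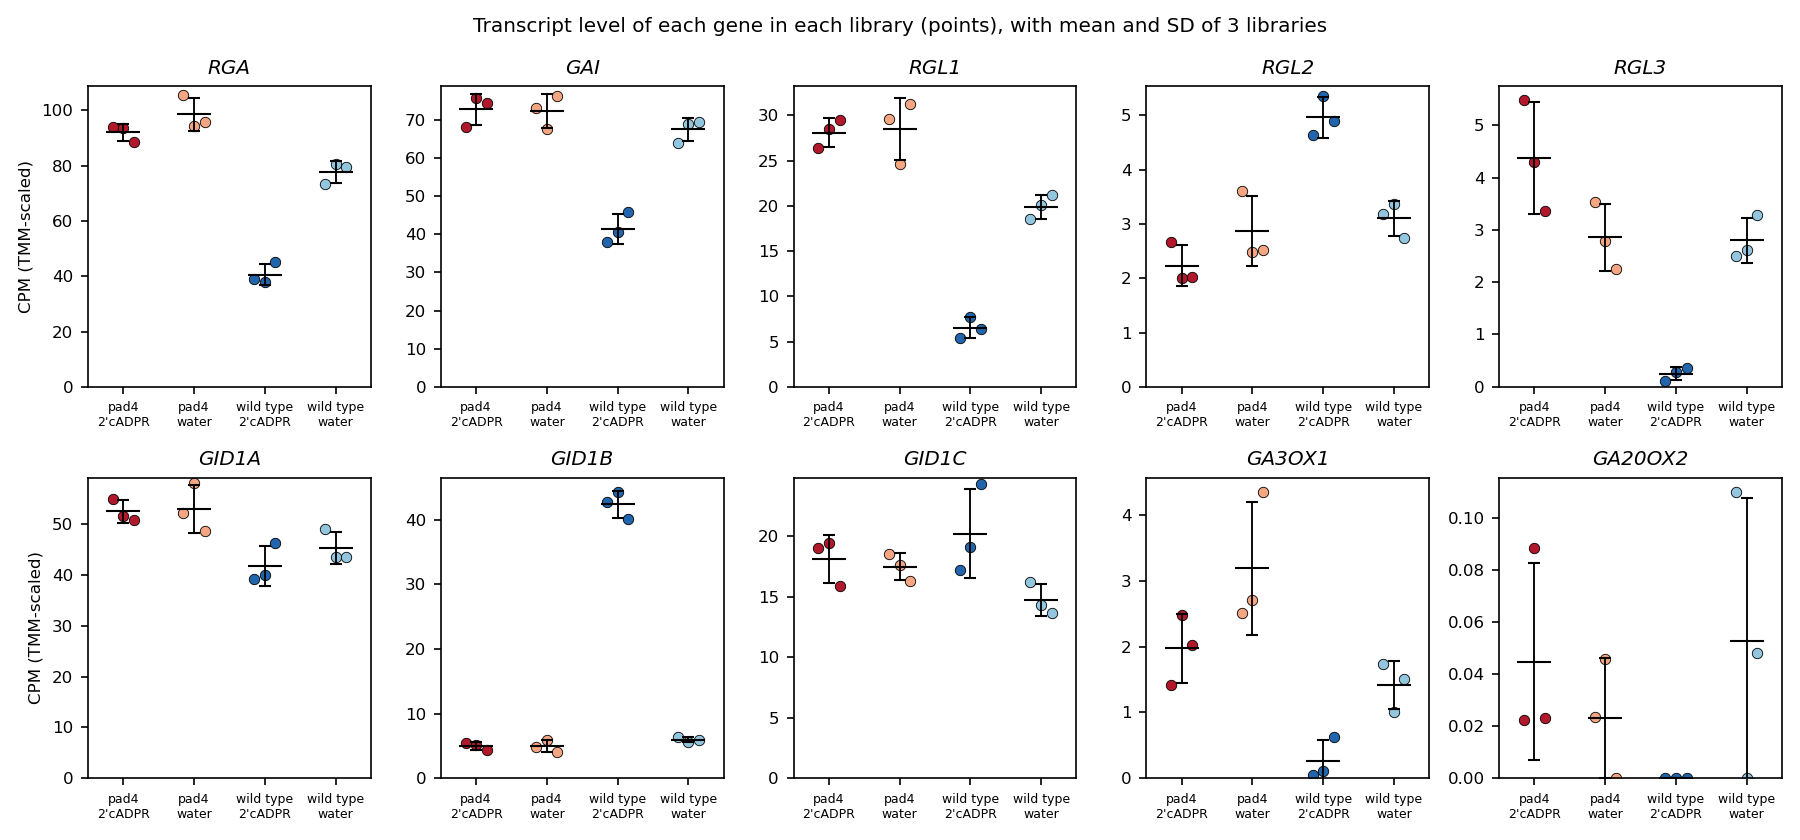
TMM-scaled CPM of the 10 genes, 1 panel per gene with its own linear axis from 0, in pad4 and wild type leaves after 2'cADPR or water. Points are libraries and bars the mean and SD of 3; RGA, GAI, RGL1, RGL3 and GA3OX1 are lowest, and GID1B and RGL2 highest, in wild type leaves after 2'cADPR, while GA20OX2 has 0 to 4 reads per library.

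RGA, with GAI the main DELLA repressor of leaf and stem growth, was the most abundant of the family outside treated wild type leaves. It was at 94.0, 93.6 and 88.5 CPM in pad4 leaves after 2'cADPR, 105, 94.3 and 95.8 in pad4 leaves after water, 38.9, 37.8 and 45.0 in wild type leaves after 2'cADPR, and 73.3, 80.7 and 79.4 in wild type leaves after water. The 3 treated wild type libraries were the lowest of the 12 and overlapped no other group, and in pad4 the treated libraries lay just below the water libraries. The fold change after 2'cADPR was -0.94 on the log2 scale in the wild type (SE 0.0756, adjusted p = 3.1e-08) and -0.10 in pad4 (SE 0.0738, adjusted p = 0.985). The pad4 response minus the wild type response was 0.84 (SE 0.105, adjusted p = 7.3e-06).

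GAI is the partner of RGA in growth repression, and the pair had the most alike profiles of any 2 of the 9 genes. GAI was at 68.2, 75.9 and 74.5 CPM in pad4 after 2'cADPR, 73.1, 67.5 and 76.2 in pad4 after water, 38.0, 40.6 and 45.7 in wild type after 2'cADPR, and 64.1, 69.1 and 69.4 in wild type after water. Again the treated wild type libraries stood below all others, while the other 3 groups overlapped. The wild type log2 fold change was -0.70 (SE 0.0778, adjusted p = 1.05e-06), that in pad4 0.01 (SE 0.0765, adjusted p = 1), and the difference of responses 0.72 (SE 0.109, adjusted p = 4.99e-05).

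RGL1, a DELLA gene with a part in germination and flower development, was at 26.4, 28.5 and 29.5 CPM in pad4 after 2'cADPR, 29.6, 24.6 and 31.2 in pad4 after water, 5.44, 7.76 and 6.37 in wild type after 2'cADPR, and 18.5, 20.1 and 21.2 in wild type after water. The treated wild type libraries were lowest, the untreated wild type libraries came next, and both pad4 groups lay above them. The log2 fold change after 2'cADPR was -1.61 in the wild type (SE 0.125, adjusted p = 2.11e-08) and -0.02 in pad4 (SE 0.115, adjusted p = 1), and the responses differed by 1.59 (SE 0.169, adjusted p = 1.43e-06).

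RGL3 fell furthest in the family, and its counts in treated wild type leaves were small. It had 5.48, 4.29 and 3.35 CPM in pad4 after 2'cADPR, 3.54, 2.78 and 2.26 in pad4 after water, 0.119, 0.279 and 0.363 in wild type after 2'cADPR (5, 12 and 15 reads), and 2.50, 2.61 and 3.29 in wild type after water. Only the treated wild type group stood apart below the rest, and the treated pad4 libraries were the highest group by their mean but overlapped pad4 after water. The log2 fold change was -3.45 in the wild type (SE 0.344, adjusted p = 3.35e-07). In pad4 it was 0.61 (SE 0.264), with an unadjusted p of 0.0348 and an adjusted p of 0.965, the only one of the 9 genes under 0.05 before adjustment there, against the 5.05% of all tested genes. The responses differed by 4.07 (SE 0.436, adjusted p = 1.57e-06).

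RGL2, the DELLA gene best known for holding back seed germination, moved the other way. It was at 2.66, 2.01 and 2.03 CPM in pad4 after 2'cADPR, 3.61, 2.48 and 2.51 in pad4 after water, 4.63, 5.37 and 4.89 in wild type after 2'cADPR, and 3.19, 3.38 and 2.74 in wild type after water. The treated wild type libraries were above all 9 others, which overlapped in part. RGL2 rose by 0.68 on the log2 scale in the wild type (SE 0.192, adjusted p = 0.00554), and its value in pad4 was -0.36 (SE 0.198, adjusted p = 0.974). The responses differed by -1.04 (SE 0.276, adjusted p = 0.00466).

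**Figure D2:**
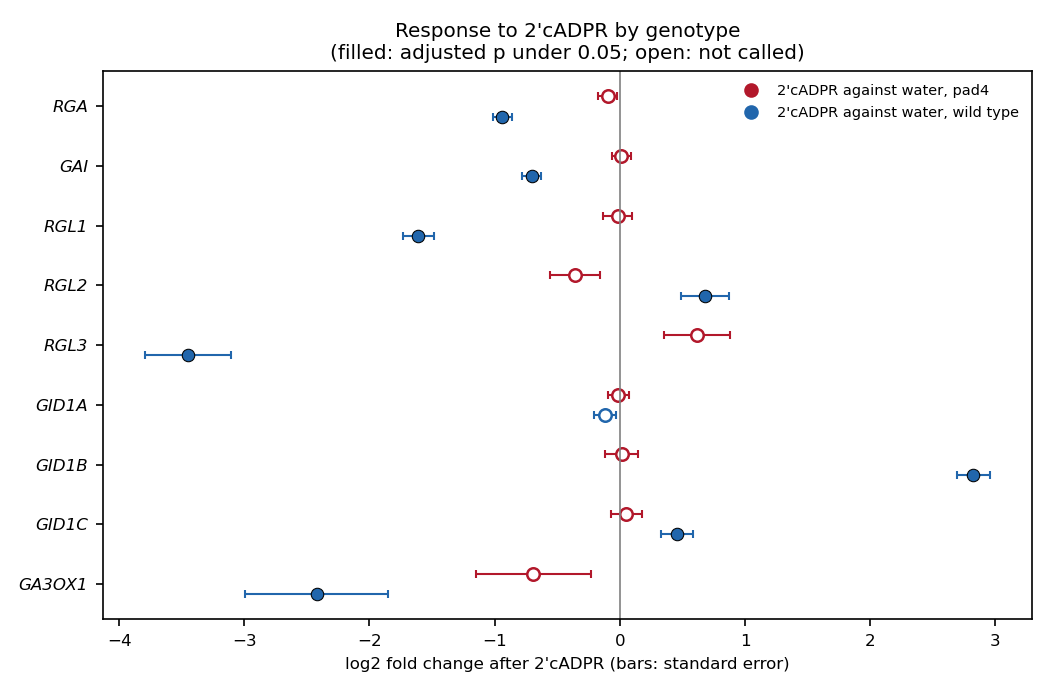
Log2 fold change after 2'cADPR against water for the 9 tested genes in pad4 (red) and in the wild type (blue), with bars of 1 standard error; filled points have an adjusted p under 0.05. All pad4 points are open and lie between -0.69 and 0.61, while 8 of the 9 wild type points are filled, from -3.45 for RGL3 to 2.82 for GID1B.

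GID1B rose in the wild type with the smallest adjusted p of the 9 tested genes. It encodes the receptor whose binding to DELLA proteins depends least on gibberellin. GID1B was at 5.53, 5.15 and 4.33 CPM in pad4 after 2'cADPR, 4.82, 5.97 and 4.07 in pad4 after water, 42.8, 44.3 and 40.1 in wild type after 2'cADPR, and 6.40, 5.58 and 5.96 in wild type after water. The treated wild type libraries stood far above the 9 others, which lay close together. The log2 fold change was 2.82 in the wild type (SE 0.13, adjusted p = 1.15e-10) and 0.01 in pad4 (SE 0.135, adjusted p = 1), and the responses differed by -2.81 (SE 0.186, adjusted p = 1.53e-08).

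GID1C was at 19.0, 19.4 and 15.8 CPM in pad4 after 2'cADPR, 18.5, 17.6 and 16.3 in pad4 after water, 17.2, 19.1 and 24.3 in wild type after 2'cADPR, and 16.2, 14.3 and 13.6 in wild type after water. The 2 wild type groups did not overlap, but the treated wild type libraries overlapped both pad4 groups. GID1C rose by 0.46 on the log2 scale in the wild type (SE 0.126, adjusted p = 0.00463), with 0.05 in pad4 (SE 0.124, adjusted p = 0.998). The difference of responses, -0.40 (SE 0.177), did not pass the threshold (adjusted p = 0.0634), so GID1C is not shown to respond differently in the 2 genotypes.

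GID1A, the most abundant receptor gene after water, was at 55.0, 51.6 and 50.9 CPM in pad4 after 2'cADPR, 52.2, 58.1 and 48.7 in pad4 after water, 39.1, 39.9 and 46.2 in wild type after 2'cADPR, and 49.0, 43.6 and 43.5 in wild type after water. Treated and water libraries overlapped within each genotype. Its log2 fold change was -0.12 in the wild type (SE 0.0846, adjusted p = 0.228) and -0.01 in pad4 (SE 0.0838, adjusted p = 1), with a difference of responses of 0.10 (SE 0.119, adjusted p = 0.48).

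GA3OX1, a main enzyme for the last step to active gibberellin in shoots, was at 1.42, 2.48 and 2.03 CPM in pad4 after 2'cADPR, 2.51, 2.71 and 4.35 in pad4 after water, 0.0477, 0.116 and 0.630 in wild type after 2'cADPR (2, 5 and 26 reads), and 1.73, 1.01 and 1.51 in wild type after water. The treated wild type libraries were the 3 lowest, but replicate 3 was well above the other 2. GA3OX1 fell by 2.42 on the log2 scale in the wild type (SE 0.571, adjusted p = 0.00151), and without that replicate the value was -4.04 (adjusted p = 1.38e-05). In pad4 the value was -0.69 (SE 0.457, adjusted p = 0.985), with the 3 treated libraries all below the 3 water libraries. The difference of responses was 1.73 (SE 0.732, adjusted p = 0.0561), not called with all libraries, and 3.35 (adjusted p = 0.000492) without the same library.

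For the difference of responses as a whole, 4 of the 9 genes were called with a higher response in pad4 than in the wild type and 2 with a lower one, against a background of 57.6% (29.4% higher and 28.2% lower). The 4 were RGA, GAI, RGL1 and RGL3, and the 2 were RGL2 and GID1B. Leaf cell type markers moved in wild type leaves after 2'cADPR too, and for the difference of responses 3 of 4 mesophyll, 3 of 4 epidermis, 1 of 4 guard cell and 2 of 4 vascular genes were called higher and none lower. Their part in the changes of the 9 genes was not tested. The summed level of 4 mesophyll genes was 19885 to 21554 CPM in pad4 after 2'cADPR, 22208 to 22772 in pad4 after water, 10133 to 11330 in wild type after 2'cADPR and 18987 to 24523 in wild type after water, with 3 of the 4 (RBCS1A, CA1 and RCA) called lower after 2'cADPR in the wild type. The sum of 4 epidermis genes was 722 to 760 CPM in pad4 after 2'cADPR, 664 to 822 in pad4 after water, 314 to 399 in wild type after 2'cADPR and 765 to 855 in wild type after water, with ATML1, FDH and CER5 called lower after 2'cADPR in the wild type. Of 4 guard cell genes KAT1 was called higher and MYB60 lower after 2'cADPR in the wild type, and of 4 vascular genes SUC2 and ATHB8 were called lower. The remaining members of these 4 lists were not called there. Among them the mesophyll gene LHCB2.1 averaged 297 ± 14.2 CPM after 2'cADPR and 290 ± 48.9 after water in the wild type (SD, n = 3 each). Most of the mesophyll sum was RBCS1A, at 7389 CPM after 2'cADPR and 14490 after water in the wild type. The epidermis gene PDF1 had at most 24 reads in a wild type library. In whole leaves, fewer cells of a type and less RNA per cell cannot be told apart.

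Between the genotypes after 2'cADPR, the pad4 leaves had more of 4 DELLA transcripts, GID1A and GA3OX1 than wild type leaves and less RGL2 and GID1B. Thus 6 of 9 genes were called higher in pad4 and 2 lower, against a background of 74.2% (37.4% higher and 36.8% lower), with a median log2 difference of 0.81 beside 0.02 over all tested genes. The comparison shares its treated wild type libraries with the one above. RGL3 was 17.2-fold higher in pad4 leaves by the ratio of mean CPM (log2 difference 4.09, SE 0.34, adjusted p = 2.85e-08). That fold rests on 5 to 15 reads in the treated wild type libraries, and the log2 difference ran from 1.42 to 4.42 over the alternatives. GID1B was 8.47-fold higher in wild type leaves (log2 difference, pad4 minus wild type, -3.08, SE 0.132, adjusted p = 1.62e-11). The other log2 differences called were 1.18 for RGA, 0.81 for GAI, 2.11 for RGL1, -1.15 for RGL2, 0.33 for GID1A and 2.90 for GA3OX1, with adjusted p between 5.55e-10 and 0.00247. The GA3OX1 difference was 4.52 without treated wild type replicate 3. GID1C, at -0.16 (adjusted p = 0.26), was not called.

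After water the genotypes differed in 2 of the 9 genes, both higher in pad4, against a background of 29.2% (11.7% higher and 17.5% lower). RGA averaged 98.5 ± 5.99 CPM in pad4 leaves and 77.8 ± 3.93 CPM in wild type leaves (SD, n = 3 each), a log2 difference of 0.34 (SE 0.0741, edgeR adjusted p = 0.00277). RGL1 averaged 28.5 ± 3.45 CPM in pad4 leaves and 19.9 ± 1.32 CPM in wild type leaves (SD, n = 3 each), a log2 difference of 0.52 (SE 0.116, edgeR adjusted p = 0.00351). The libraries of the 2 genotypes did not overlap for RGA, RGL1, GA3OX1 or GID1C. The share of all tested genes without overlap was not computed, so this is description only. GA3OX1 was at 3.19 ± 1.01 CPM in pad4 and 1.42 ± 0.37 CPM in the wild type (SD, n = 3 each), but its log2 difference of 1.17 missed the threshold (SE 0.469, edgeR adjusted p = 0.0777). GID1A was near it as well, at 0.23 (adjusted p = 0.0583). GAI, RGL2, RGL3, GID1B and GID1C differed by between -0.27 and 0.25 on the log2 scale, with adjusted p of 0.153 to 0.954.

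Levels of different genes were set side by side in deposited FPKM, which divides by length. In wild type leaves after water the order was RGA at 32.8 ± 0.868 FPKM, GAI at 27.2 ± 0.427, GID1A at 23.3 ± 2.38, RGL1 at 9.37 ± 0.331, GID1C at 7.85 ± 0.972, GID1B at 2.88 ± 0.275, RGL2 at 1.32 ± 0.161, RGL3 at 1.21 ± 0.155 and GA3OX1 at 0.917 ± 0.257 (SD, n = 3). The ranges of RGL2, RGL3 and GA3OX1 all overlapped. Both pad4 groups had the same first 6 genes in that order, with GAI and GID1A overlapping in their ranges. The range of GID1B overlapped that of RGL3 in pad4 after 2'cADPR and that of GA3OX1 in pad4 after water. In wild type leaves after 2'cADPR the order began with GID1A at 21.4 ± 2.15 FPKM, GID1B at 20.4 ± 0.831, RGA at 17.1 ± 1.78 and GAI at 16.7 ± 1.68 (SD, n = 3). GID1A and GID1B overlapped there, as did RGA and GAI. Below them came GID1C at 10.7 ± 2.02 FPKM, RGL1 at 3.07 ± 0.523, RGL2 at 2.1 ± 0.141, GA3OX1 at 0.171 ± 0.207 and RGL3 at 0.110 ± 0.0541 (SD, n = 3), and the last 2 overlapped.

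The summed FPKM of the 5 DELLA genes was 88.3 ± 3.02 in pad4 after 2'cADPR, 89.4 ± 4.26 in pad4 after water, 39.1 ± 3.45 in wild type after 2'cADPR and 71.9 ± 1.46 in wild type after water (SD, n = 3 each). That of the 3 receptor genes was 40.8 ± 2.38 in pad4 after 2'cADPR, 40.1 ± 3.49 in pad4 after water, 52.5 ± 3.39 in wild type after 2'cADPR and 34.0 ± 3.60 in wild type after water (SD, n = 3 each). Treated wild type leaves were the one group in which receptor transcripts summed to more than DELLA transcripts. GID1B made up 6.17% of receptor FPKM in pad4 after 2'cADPR, 6.10% in pad4 after water, 39.0% in wild type after 2'cADPR and 8.48% in wild type after water. GID1A made up 40.7% in wild type after 2'cADPR and between 68.5% and 69.9% in each of the other 3 groups. Among DELLA transcripts, RGL1 made up 15.7% in pad4 after 2'cADPR, 15.5% in pad4 after water, 7.88% in wild type after 2'cADPR and 13.0% in wild type after water. RGL2 made up 5.39% in wild type after 2'cADPR and between 1.12% and 1.83% in the others, and RGL3 0.276% in wild type after 2'cADPR and between 1.43% and 2.26% in the others. RGA made up between 43.8% and 48.1% of the DELLA sum in all 4 group means.

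**Figure D3:**
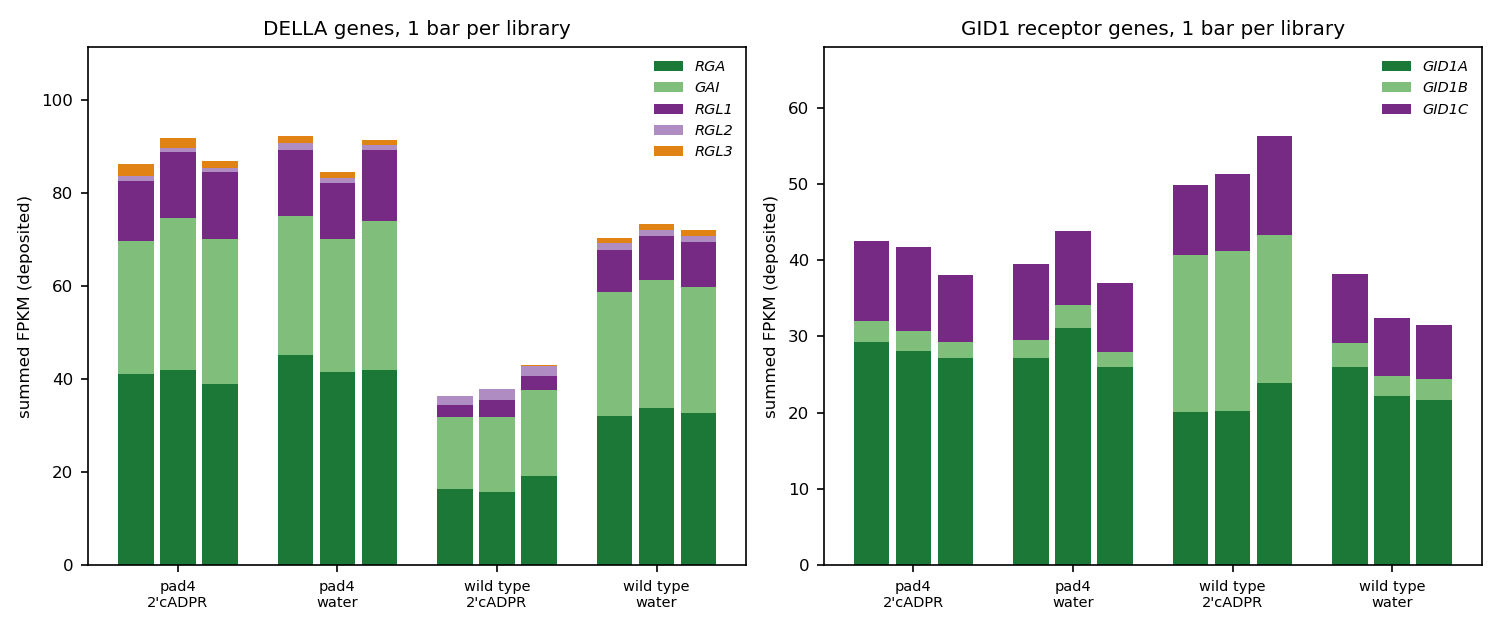
Deposited FPKM of the 5 DELLA genes (left) and 3 GID1 genes (right), stacked, with 1 bar per library and linear axes from 0. In the 3 libraries of wild type leaves after 2'cADPR the DELLA stack is the lowest, 36.4 to 43.0 FPKM, and the receptor stack the highest, 49.8 to 56.3 FPKM, with GID1B most enlarged.

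Likeness between profiles was measured as the root mean square difference of log2(CPM + 0.5), centred on each gene's mean over the 12 libraries. A small value needs changes of like size, but 2 genes that vary little are also close whatever their shapes. Each gene's own root mean square around its mean was 0.17 for GID1A, 0.21 for GID1C, and 0.34 (GAI) to 1.26 (GID1B) for the others tested. GID1A and GID1C were 0.24 apart, more than either gene's own value. Among the 9 genes GAI and RGA were closest, at 0.19, and GID1B and RGL3 farthest apart, at 2.29. Of 8443 genes with a symbol, the 3 nearest to RGA were ARD4 (0.045), CDSP32 and PMI1, and to GAI they were SAL1 (0.060), ATXR2 and GSH1. RGL1 was nearest to PHOT1 (0.10), SLP2 and PHOT2, the first and last being the blue-light receptors for phototropism. The genes nearest to GID1B were RSH2 (0.18), NAC094 and AIR12, those nearest to RGL2 were CCR1 (0.15), CDPK2 and bZIP16, and those nearest to RGL3 were ASG8 (0.20), GATA7 and ANNAT2. For GID1A they were CYP706A4 (0.067), AAE3 and CPK13, for GID1C RCAR3 (0.11), UMAMIT21 and ERD14, and for GA3OX1 EBP (0.25), DYL1 and GNC.

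Other gibberellin genes were read from 8 lists, of which those of synthesis, inactivation, DELLA turnover and response are given by their counts in the wild type comparison, 2'cADPR against water. Over all tested genes 34.6% were called higher and 34.6% lower in that comparison, with a median of -0.01. None of the genes in any of the 8 lists was called in pad4 leaves. In the early steps of synthesis 2 of 5 genes were called lower and none higher, with a list median of -0.30, and that share called lower is close to the 34.6% of all tested genes. KAO2, an ent-kaurenoic acid oxidase, fell by 1.36 on the log2 scale (adjusted p = 1.79e-07). GA3, ent-kaurene oxidase, was at -0.25 (adjusted p = 0.0452), a call lost under 9 alternatives, among them leaving out treated wild type replicate 2 or 3, water wild type replicate 1 or 3, treated pad4 replicate 2 or water pad4 replicate 1 (adjusted p of 0.053 to 0.151). Of 7 other 20- and 3-oxidase genes, 3 could be tested and all were called. GA20OX1, a main 20-oxidase of stems, averaged 7.35 ± 2.25 CPM in pad4 after 2'cADPR, 6.53 ± 0.496 in pad4 after water, 0.884 ± 0.323 in wild type after 2'cADPR and 4.05 ± 0.599 in wild type after water (SD, n = 3 each), and fell by 2.20 in the wild type (edgeR adjusted p = 5.02e-06). GA3OX2, with at most 29 reads in a library, was called lower (adjusted p = 0.00694), and GA20OX3, with 18 to 21 reads in treated and 0 to 4 in water wild type libraries, was called higher (adjusted p = 0.00201).

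Among 11 inactivation genes 5 were tested, and in the wild type 2 were called higher and none lower. With no count filter, with DESeq2 and in several fits with 1 library left out, 1 inactivation gene was called lower there. GA2OX8, named here after its values were seen, was left out by the filter. It had 0 to 1 reads in treated and 4 to 7 in water wild type libraries. GA2OX2, a 2-oxidase that inactivates gibberellin, averaged 2.1 ± 0.652 CPM in pad4 after 2'cADPR, 2.08 ± 0.501 in pad4 after water, 26.2 ± 4.85 in wild type after 2'cADPR and 5.65 ± 0.418 in wild type after water (SD, n = 3 each), a log2 change of 2.21 in the wild type (edgeR adjusted p = 9.88e-08). ELA1, a cytochrome P450 of the CYP714A group, had 77 to 111 reads in treated wild type libraries, 0 to 6 in water wild type libraries and 0 in all 6 pad4 libraries (wild type adjusted p = 0.000138). Of 4 genes of DELLA turnover and modification 3 were tested and all 3 rose in the wild type, against 34.6% of all tested genes called higher. SNE, the gene left out by the filter, had 2 to 6 reads in water wild type libraries and 0 in every treated one. With no filter or with DESeq2, 1 gene of this list was called lower in the wild type. SEC and SPY, which add O-linked sugars to DELLA proteins, rose by 0.86 (adjusted p = 5.21e-08) and by 0.54 (adjusted p = 2.94e-05). The F-box gene SLY1 rose by 0.37 (adjusted p = 0.00413).

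Of 14 genes for proteins that DELLA binds, 7 were called higher and 4 lower in the wild type, with a median of 0.48, against 69.2% of all tested genes called in either direction. BZR1 (0.21, adjusted p = 0.0399) and MYC2 (-0.29, adjusted p = 0.012), named here after their values were seen, are among the 11 and lost their calls under 8 and 2 alternatives. BZR1 lost it with a minimum of 5 CPM in 3 libraries or without treated wild type replicate 1 or 2, water wild type replicate 1 or 2, treated pad4 replicate 2 or 3, or water pad4 replicate 3. MYC2 lost it without treated wild type replicate 1 or water wild type replicate 3. SCL3, a GRAS protein that opposes DELLA, averaged 13.4 ± 0.751 CPM in pad4 after 2'cADPR, 11.2 ± 1.77 in pad4 after water, 68.1 ± 3.92 in wild type after 2'cADPR and 17 ± 2.48 in wild type after water (SD, n = 3 each), a log2 change of 2.0 in the wild type (edgeR adjusted p = 8.92e-10). PIF4, a growth-promoting bHLH factor held back by DELLA, fell by 1.48 (adjusted p = 2.2e-09), while EIN3, a factor of ethylene signalling, rose by 0.68 and IDD4 by 0.86. Genes known to be raised by DELLA went both ways, with 3 of 6 tested called higher and 2 lower. SCL3 is in that list too, and AT2G31730 (1.83) and IQD22 (0.71) also rose, whereas AT5G50915 (-1.26) fell.

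Of 9 genes known to be raised by gibberellin, 8 were called lower in the wild type and none higher, with a median of -2.38. Of all tested genes 34.6% were called lower. The list was chosen with earlier results of these data known, so its counts in each comparison are not independent evidence of direction. EXPA1, an expansin that loosens cell walls, averaged 169 ± 32.4 CPM in pad4 after 2'cADPR, 239 ± 40.5 in pad4 after water, 9.60 ± 1.80 in wild type after 2'cADPR and 122 ± 31.4 in wild type after water (SD, n = 3 each). EXPA1 fell by 3.66 on the log2 scale (adjusted p = 1.09e-09) and the expansin gene EXPA8 by 4.14 (adjusted p = 1.89e-09). PRE1, a small growth-promoting bHLH protein, fell by 2.38 (adjusted p = 5.94e-09). GASA6, of the gibberellin-regulated GASA peptide family, fell by 6.83 (adjusted p = 2.25e-09), and its value was -7.94 without treated wild type replicate 1. For the difference of responses 7 of the 9 were called higher in pad4 and none lower, against 29.4% of all tested genes called higher. After water 5 of the 9 were called higher in pad4 than in the wild type and none lower, against 11.7% of all tested genes called higher. Of 4 transport genes 2 were tested and NPF3.1, a gibberellin importer, fell by 2.44 (adjusted p = 8.17e-09).

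**Figure D4:**
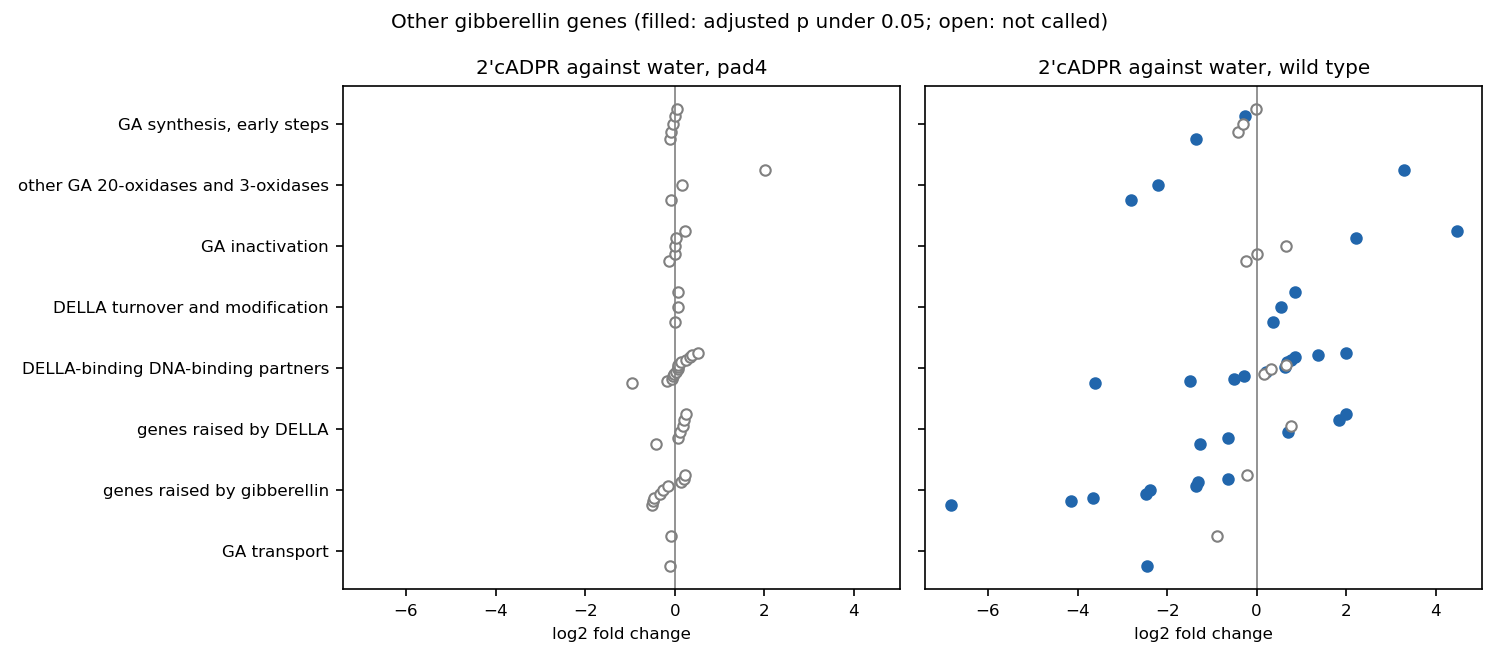
Log2 fold change after 2'cADPR against water of each tested gene of the 8 other gibberellin lists, in pad4 (left) and in the wild type (right), with filled points for an adjusted p under 0.05. Every pad4 point is open, and in the wild type 8 of 9 genes known to be raised by gibberellin are filled and lie below 0.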

How the data were processed

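mRNA-seq libraries of rosette leaves (12, in 4 groups of 3) were read as 2 kinds of deposited table. Per the file headers, 1 holds the authors' counts of reads per gene and the other FPKM, the authors' fragments scaled by gene length and library depth; replicates were not pooled. Per the submitters' processing notes, fastp, HISAT, HTSeq and TAIR10 were used, with versions and strand setting not given in the sources used here. Without a stated strand setting, reads from antisense transcripts could be counted, but no annotated gene overlaps the 10.

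From the deposited counts, edgeR 4.0.16 (R 4.3.3) gave TMM factors, kept genes by filterByExpr (minimum count 10) and tested 5 contrasts in 1 quasi-likelihood fit with 1 mean per group and no block, two-sided, with Benjamini-Hochberg adjustment over all 19652 tested genes. Standard errors are the log2 fold change divided by the root of F. CPM are scaled by TMM, and ratios are of group mean CPM. Alternatives were RLE factors, no filter, 5 CPM in 3 libraries, only the groups compared, a replicate block, limma 3.58.1 (voom, or log2 FPKM), DESeq2 1.42.0 and leaving out each library. Library totals of 35816755 to 44436989 reads limit genes with a few reads (RGL3, GA3OX1 and GA20OX2 in treated wild type leaves).

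Genes named are all 10 genes, PAD4, up to 4 called genes with the smallest adjusted p in the wild type comparison from each list, and the 3 nearest profiles of each gene; cell type markers are named from their lists. The 10 genes and all lists were chosen with earlier results of these data known, so they are not independent evidence of direction. RefSeq symbols were matched by AGI code; AT2G31730 and AT5G50915 are given by code. The upstream region of GID1C is not reported here.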

Additional observations from a re-analysis of the deposited data

Results flagged for a closer look

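For 6 genes the response to 2'cADPR differed between the genotypes by the test of the difference itself (edgeR quasi-likelihood, Benjamini-Hochberg over all tested genes). The pad4 response minus the wild type response was 0.84 for RGA, 0.72 for GAI, 1.59 for RGL1, -1.04 for RGL2, 4.07 for RGL3 and -2.81 for GID1B on the log2 scale, with adjusted p between 1.53e-08 and 0.00466. For RGA, GAI, RGL1 and RGL3 a positive value stands for a fall in wild type leaves with no called change in pad4 leaves, and for RGL2 and GID1B a negative value stands for a rise in wild type leaves with no called change in pad4 leaves. Of all tested genes 57.6% passed the same test.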

How the results depend on the processing

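Over 21 alternatives, 894 of 921 values of the 9 tested gibberellin perception and synthesis genes kept their side of the threshold and 27 gained a call. None lost a call, and no called value reversed its direction. Of 952 wild type values of 46 other gibberellin genes, 919 kept their side, 19 lost a call (GA3 under 9 settings, BZR1 under 8 and MYC2 under 2) and 14 gained one. No called value of these genes reversed. Among the 9 tested genes, the 27 calls gained were GID1A (8 settings), GA3OX1 (6) and GID1B (1) for pad4 against wild type after water. For the difference of responses they were GA3OX1 (8) and GID1C (4). Among values not called, 20 of 431 changed sign, none above 0.155 on the log2 scale. With at least 5 CPM in 3 libraries, 6 of the 10 genes were tested, and 5 were called both for 2'cADPR in the wild type and for pad4 against wild type after 2'cADPR. For pad4 against wild type after water 4 were called by DESeq2, 4 on log2(FPKM + 1), and 2 to 4 with 1 library left out. The main fit called 69.2% of all tested genes for 2'cADPR in the wild type. It called 74.2% for pad4 against wild type after 2'cADPR and 29.2% after water. For 2'cADPR in pad4, where edgeR called 1 gene of all tested (992 had an unadjusted p under 0.05), DESeq2 called 29, a fit of only the groups compared 2, and fits with 1 library left out 1 to 3. The causes were not tested. On log2(FPKM + 1), which understates change in low genes, RGL3 was at -0.99 in the wild type.

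The replicate numbers were checked for pairing: deviations of same-numbered libraries correlated at -0.151 to 0.138, 2 of 18 pairs over 0.1, so they were not taken to pair libraries. With the number as a block, 13468, 1, 14464, 5580 and 11218 genes were called (2'cADPR in wild type, 2'cADPR in pad4, pad4 against wild type after 2'cADPR, the same after water, and the difference of responses), and 8, 0, 8, 2 and 7 of the 9 genes. The gene added was GA3OX1, with a difference of responses of 1.94 (adjusted p = 0.0316).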
